A study of Mus musculus with 8 samples.

Results

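Mature neutrophils were examined in mouse bone marrow grown for 1 week on AFT024 cells, an irradiated fetal liver fibroblast line that feeds blood progenitors, in long-term culture medium containing hydrocortisone. One group received medium alone and the other received 35 µM deoxycholic acid, a bile acid that gut bacteria make from a primary bile acid. Both groups came from whole bone marrow, shared the feeder layer and the medium, and were sorted for lineage-negative cells before 3′ single-cell RNA sequencing, a sort meant to enrich stem and progenitor cells and to remove cells that carry mature lineage antigens. The sources used here give no strain, sex or age for the mice. GEO's labels name samples a to d for both groups, but a cell's name shows its group alone, so each group is 1 library here and no difference has a replicate check. Values were unique molecular identifier (UMI) counts per gene and cell. A cell was kept when 300 or more genes were detected and 10% or less of its UMIs were mitochondrial, which left 17384 of 17866 barcodes.

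A kept cell was counted as a mature neutrophil when Retnlg, Mmp9 and Cxcr2 together reached 10 of its UMIs per 10000 and the basophil and mast cell genes Prss34, Cpa3 and Hdc together stayed under 10. This rule chose 1282 cells, 699 of 9063 in the media control library and 583 of 8321 in the deoxycholic acid library. Retnlg encodes a resistin-like secreted peptide, Mmp9 the gelatinase of tertiary granules and Cxcr2 the chemokine receptor through which neutrophils answer CXC chemokines. The members were chosen by the UMIs of these genes, so their levels are a description. The basophil limit removed 3 media control and 2 deoxycholic acid cells that were above the threshold. Of 25 barcode sequences that occurred in both libraries, 4 belonged to a mature neutrophil in 1 library and 0 in both.

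Neutrophils build their granules in waves. Promyelocytes make primary granule proteases and myeloperoxidase, myelocytes and metamyelocytes make secondary granule proteins such as lactoferrin and cathelicidin, and band and segmented cells make gelatinase granules and surface receptors while they leave the cell cycle. C/EBP family factors and PU.1 drive this programme, with C/EBPε needed for secondary granules and C/EBPβ raised in emergency granulopoiesis.

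Stretches upstream of the start sites of 3 marker genes are shown because Retnlg and Cxcr2 are in the rule and Mmp8 is a marker outside it, with the letters that C/EBP-family factors and PU.1 commonly bind. RefSeq entries on GRCm38.p6 were matched by symbol for Retnlg, Cxcr2 and Mmp8; Mmp9 had no match. Each window holds the 250 bases before the annotated start, 5′ to 3′ on the plus strand: Retnlg at chr16:48872358-48872607, Cxcr2 at chr1:74153744-74153993 and Mmp8, the neutrophil collagenase gene, at chr9:7558179-7558428. Capitals mark matches, on either strand, to TTGCNNAA, a C/EBP-type motif, or to GAGGAA, a PU.1-type motif.
Retnlg: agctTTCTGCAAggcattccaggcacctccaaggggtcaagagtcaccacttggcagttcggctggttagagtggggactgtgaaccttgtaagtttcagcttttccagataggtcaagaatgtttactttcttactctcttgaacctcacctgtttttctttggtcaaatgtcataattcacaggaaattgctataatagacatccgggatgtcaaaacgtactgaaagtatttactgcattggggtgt
Cxcr2: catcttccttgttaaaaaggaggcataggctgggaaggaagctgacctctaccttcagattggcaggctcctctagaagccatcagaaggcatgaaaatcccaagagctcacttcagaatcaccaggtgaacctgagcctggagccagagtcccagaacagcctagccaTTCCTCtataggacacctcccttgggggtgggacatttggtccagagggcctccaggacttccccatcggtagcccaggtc
Mmp8: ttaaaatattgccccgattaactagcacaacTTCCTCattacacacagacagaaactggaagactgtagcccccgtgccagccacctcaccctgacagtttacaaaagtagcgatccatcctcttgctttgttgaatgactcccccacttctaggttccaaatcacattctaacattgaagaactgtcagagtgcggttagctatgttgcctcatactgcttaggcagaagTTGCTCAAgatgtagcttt
The C/EBP-type letters occurred in the Retnlg and Mmp8 windows, and in 9.56% of 32851 windows of this length over all genes. The PU.1-type letters occurred in the Cxcr2 and Mmp8 windows and in 23.3% of all windows. In the Mmp8 window the C/EBP-type match began 19 bases before the start, and in the Retnlg window it began 246 bases before it. These matches describe the letters only.

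The label was checked against markers. For this and for the comparisons between libraries, the cells of each library were added up, and a gene's level is its UMIs per 1000000 of that sum (counts per 1000000, CPM). All 16 markers on the mature neutrophil list, 3 of them in the rule, were at 20 CPM or more in both libraries, and 15 of them were above the other kept cells in both. Immature neutrophil markers were high as well. Of 12, 11 were at 20 CPM or more in each library, and 10 were above the other kept cells in both. They summed to 62997 CPM in media control and 68019 CPM with deoxycholic acid, against 37120 CPM in the other kept cells. The 10 genes with the largest ratio over the other kept cells, among those at 100 CPM or more, were Mmp9, Retnlg, Wfdc17, Slfn1, Cxcr2, Mmp8, Fpr2, Bst1, Plbd1 and Adam8. Mmp9, Retnlg and Cxcr2 chose the cells, so their place there was set by the rule and says nothing of the label. Outside the rule, Wfdc17, a secreted whey acidic protein, was at 467 CPM in media control and 360 CPM in deoxycholic acid mature neutrophils against 9.35 CPM in other cells. Mmp8 was at 1808 and 1729 CPM against 97.2 CPM, and Slfn1, a schlafen family gene, at 145 and 146 CPM against 6.88 CPM. Fpr2, a formyl peptide receptor that senses bacterial and mitochondrial peptides, was at 142 and 163 CPM against 11.4 CPM. In Ltf-high cells outside the rule, described further on, Wfdc17 was at 13.95 CPM and Mmp8 at 207 CPM, both libraries together. Slfn1 was at 22.3 CPM and Fpr2 at 39.6 CPM there. Each of these genes was higher there than in all kept cells outside the rule pooled, so its margin over Ltf-high cells was smaller. Ltf-high cells did not hold the most of each gene. In kept cells that were neither Ltf-high nor the progenitors described with them, Wfdc17 was at 24.8 CPM and Mmp8 at 209 CPM. Slfn1 and Fpr2 were at 7.06 and 8.12 CPM in those cells.

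The cells were not uniformly end-stage. Ltf, which encodes lactoferrin and was not in the rule, was at 10 UMIs per 10000 or more in 80.1% of media control and 79.9% of deoxycholic acid mature neutrophils, between 1 and 10 in 11.4% and 12.9%, and under 1 in 8.44% and 7.20%. After each cell was thinned to 2000 UMIs, with 30 and 17 shallower cells left out, Ltf was at 10 or more in 83.0% (exact binomial 95% interval 79.9 to 85.7) and 82.0% (78.6 to 85.1). Il1b, a cytokine gene abundant in blood neutrophils, was at only 21.5 and 21.2 CPM. Most of the cells that the rule chose thus still carried secondary granule RNA.

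**Figure D1:**
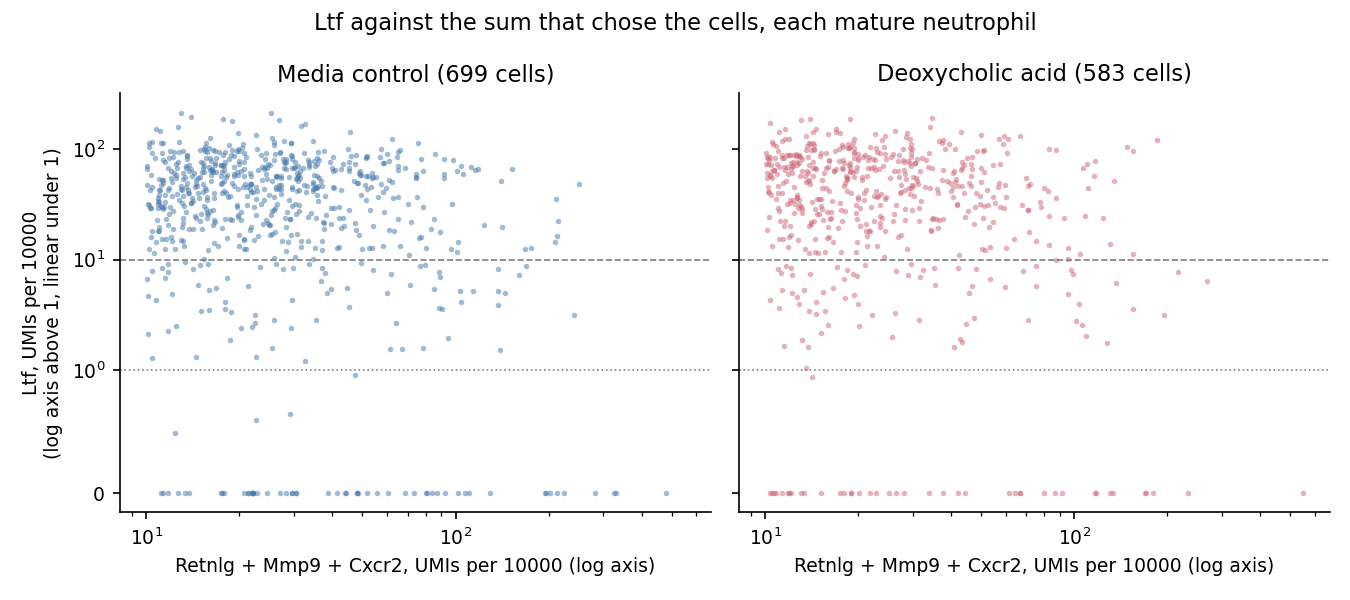
Each point is 1 mature neutrophil; the horizontal axis is the sum of Retnlg, Mmp9 and Cxcr2 that chose the cells and the vertical axis is Ltf, both in UMIs per 10000, with dashed and dotted lines at Ltf of 10 and 1. Most of the 699 media control and 583 deoxycholic acid cells lie above the dashed line (80.1% and 79.9%), and 8.44% and 7.20% lie under the dotted line.

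Markers of other cell types were in part present. Of 16 monocyte and macrophage markers, 4 were at 20 CPM or more in each library, among them Ly6c2 (1049 and 1013 CPM) and F13a1 (315 and 342 CPM), while Csf1r was at 0.904 and 0.268 CPM and C1qa, C1qb and Mrc1 were at 0. This list summed to 1488 and 1476 CPM, against 1252 CPM in the other kept cells, and 7 of its markers were above those cells in both libraries. Of 9 eosinophil markers 2 were at 20 CPM or more, the sum was 155 and 163 CPM against 129 CPM, and Epx, Ccr3 and Il5ra were at 0. Of 8 B cell markers 1 was at 20 CPM or more, the sum was 26.8 CPM in both libraries against 22.7 CPM, and Ms4a1, Ebf1 and Vpreb3 were at 0. Of 10 basophil and mast cell markers, 3 of which were in the rule, 1 was at 20 CPM or more and the sum was 51.5 and 53.0 CPM against 237 CPM. The part of such RNA in the results was not tested. No dendritic cell, T and NK cell, erythroid, megakaryocyte or stromal marker reached 20 CPM, and Cd3e, Hbb-bs, Ppbp and Col1a2 were at 0. Summed feeder fibroblast markers were at 4.70 and 5.63 CPM. The 10 progenitor and promyelocyte markers summed to 1686 and 1237 CPM, against 11544 CPM in the other kept cells.

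Levels of several genes were graded along the rule sum. Cells were split by it into 4 bands, at 10 to 15, 15 to 25, 25 to 50, and 50 or more UMIs per 10000. The bands held 23.0%, 28.0%, 29.3% and 19.6% of media control and 29.7%, 28.0%, 25% and 17.3% of deoxycholic acid mature neutrophils, from lowest to highest. The lowest band's share was 1.29 times as large with deoxycholic acid (exact binomial 95% interval 1.03 to 1.61), so ratios over all members also hold this shift; the rule's own sum sets the bands. Mki67, a proliferation marker, was at 386 and 373 CPM in the lowest band of the media control and deoxycholic acid libraries, at 247 and 199 CPM in the next, at 113 and 136 CPM in the next, and at 25.3 and 26.8 CPM in the highest. Camp, the cathelicidin gene, was at 14926 and 12467 CPM in the lowest band and 6789 and 4527 CPM in the highest. Both genes stepped down in each library. Cebpe, the secondary granule transcription factor, went from 317 and 311 CPM to 128 and 140 CPM.

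Other genes were higher in the highest band. Mmp8 went from 1007 and 1028 CPM in the lowest band to 3396 and 3514 CPM in the highest, and Il1r2, the decoy receptor for interleukin-1, from 378 and 471 CPM to 1356 and 1228 CPM. Wfdc17 went from 143 and 190 CPM to 1389 and 1119 CPM. Cebpb went from 323 and 212 CPM to 685 and 413 CPM, so it stepped up in both libraries while staying lower with deoxycholic acid in every band. Not every gene of mature cells did so: Cybb, the catalytic subunit gene of the respiratory burst oxidase, went from 1307 and 1648 CPM to 900 and 867 CPM, and Padi4, a histone citrullinating enzyme, from 61.7 and 86.9 CPM to 73.3 and 92.9 CPM. These genes were picked after their values were seen and the bands come from the rule's own sum, so the gradients carry no test. Median depth fell along them, from 8233 and 6887 UMIs per cell in the lowest band to 5509 and 4602 in the highest; its part in the gradients was not tested.

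**Figure D2:**
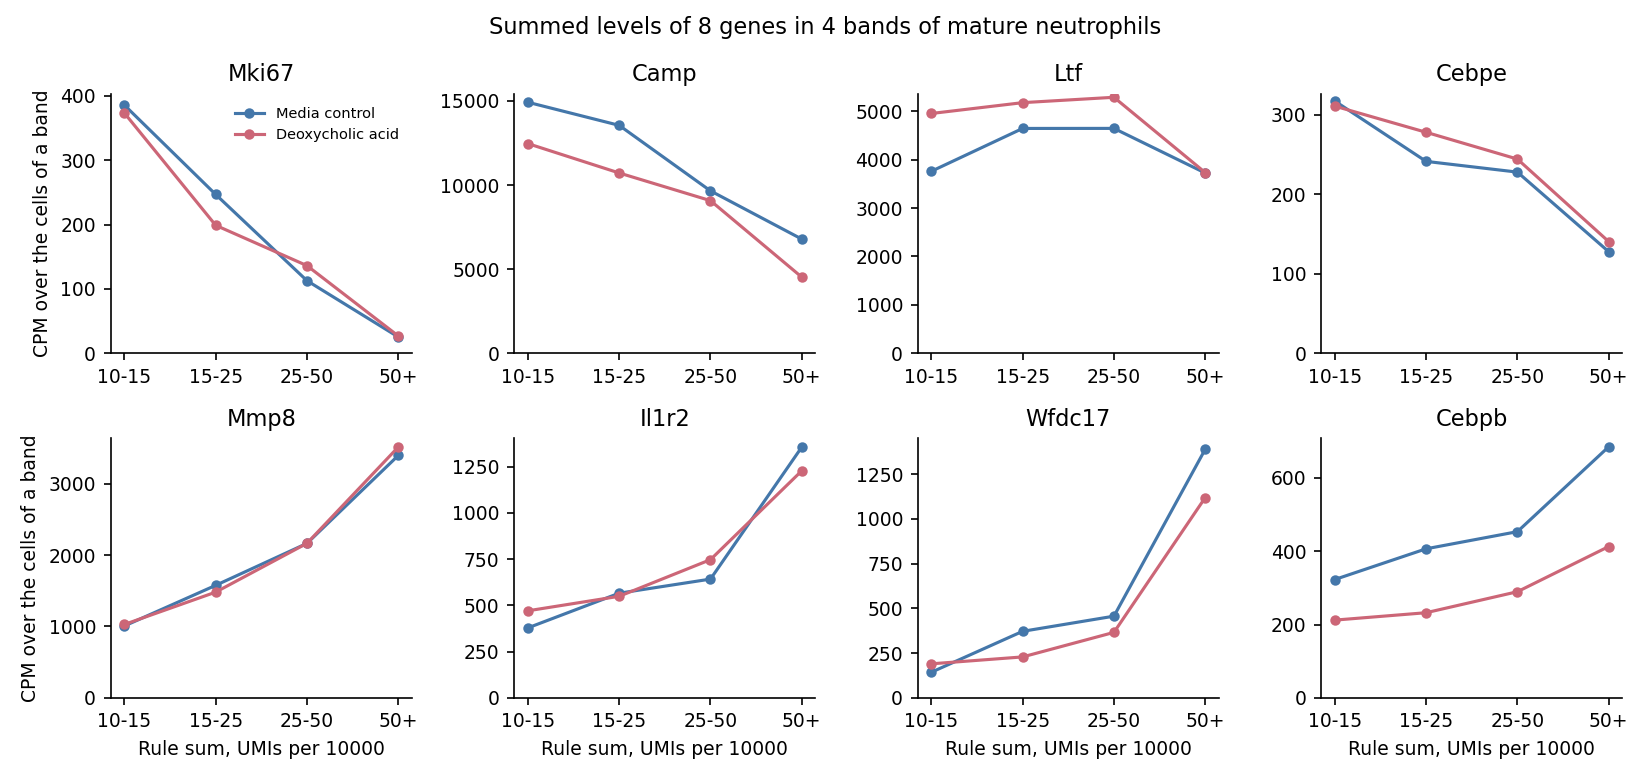
Each panel plots the CPM of 1 gene, summed over the cells of a library, in 4 bands of the rule sum (UMIs per 10000); blue is media control and red is deoxycholic acid, and there are no error bars because each group is 1 library. Mki67, Camp and Cebpe end lower than they start, Mmp8, Il1r2, Wfdc17 and Cebpb end higher, and Cebpb is lower with deoxycholic acid in all 4 bands.

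Cells just outside and just inside the threshold had levels of the same order. With the rule sum between 8 and 10 there were 133 media control and 104 deoxycholic acid cells, in which Mmp8 was at 987 and 775 CPM, Mki67 at 351 and 372 CPM and Ltf at 3875 and 4469 CPM. Between 10 and 12 there were 78 and 76 cells, with Mmp8 at 885 and 1164 CPM, Mki67 at 425 and 397 CPM and Ltf at 3318 and 5284 CPM. Mmp8 was lower inside the threshold in media control and higher inside it with deoxycholic acid.

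Mature neutrophils with Ltf under 1 were a mixed group. In these 59 media control and 42 deoxycholic acid cells, Wfdc17 was at 2960 and 1537 CPM, Mmp8 at 3505 and 3372 CPM and Cxcl2, a neutrophil-attracting chemokine, at 1129 and 1796 CPM, each above the cells with Ltf of 10 or more (192 and 124 CPM, 1714 and 1478 CPM, and 372 and 318 CPM). Elane, the neutrophil elastase gene of promyelocytes, was also higher there, at 472 and 920 CPM against 158 and 115 CPM, and Mki67 was at 264 and 215 CPM. In the cells with Ltf of 1 to 10, Elane was at 500 and 297 CPM and Mki67 at 333 and 359 CPM. RNA of these genes was thus not particular to the cells with Ltf under 1. The median depth of the cells with Ltf under 1 was 3934 and 3769 UMIs, against 6794 and 5864 in those with 10 or more.

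Depth and a few deep cells bear on every comparison of the libraries. Mature neutrophils had a median of 6516 UMIs in media control and 5678 with deoxycholic acid, and all kept cells 19168 and 14829. Above 20000 UMIs were 30 media control mature neutrophils but only 2 with deoxycholic acid, and these held 15% and 1.13% of the UMIs summed. Mpo and Elane together reached 10 UMIs per 10000 in 17 and 8 mature neutrophils, which held 6.15% and 2.79%. Values without the deep cells are therefore given beside many of the results that move with them. Intervals on shares, ratios and log2 ratios are exact binomial 95% intervals for counting error only, since UMIs of 1 cell are not independent draws.

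Mature neutrophils made up 7.71% of kept media control cells (7.17 to 8.28) and 7.01% of kept deoxycholic acid cells (6.47 to 7.58). These are shares of the cells left after the lineage-negative sort, not of the cultures, and the part of the sort in them was not tested. The ratio of the shares was 0.908, and its interval, 0.812 to 1.02, included 1. The ratio was below 1 in each setting run, but whether its interval included 1 depended on the threshold and on depth. It was 0.798 (0.687 to 0.927) for cells at 20 or more on the rule sum and 0.796 (0.700 to 0.905; 6.78% and 5.40% of cells) when each cell was first thinned to 5000 UMIs. That thinning left out 669 media control and 651 deoxycholic acid cells with fewer UMIs. Among them were 210 of the 699 and 227 of the 583 mature neutrophils, and the part of this loss in the ratio was not tested. The ratio was 0.936 (0.849 to 1.03; 9.98% and 9.35%) when thinned to 2000 UMIs and 0.946 (0.845 to 1.06) without the mature neutrophils above 20000 UMIs. As shares of kept cells, the band at 25 to 50 had a ratio of 0.776 (0.623 to 0.964) and the band at 10 to 15 one of 1.17 (0.939 to 1.46). The share was thus lower beyond counting error at the higher threshold and after thinning to 5000 UMIs, and not under the rule as given.

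Inside mature neutrophils, few genes differed by much. The gene filter asked for 20 CPM and 50 UMIs in whichever library was higher. Of the 4465 genes that passed, 109 (2.44%) were higher with deoxycholic acid by a log2 ratio of 0.5 or more and 196 (4.39%) were lower by as much; a gene past either limit is termed called. The median log2 ratio was 0.02, and 95% of the genes lay between -0.60 and 0.50. Without the cells above 20000 UMIs the counts were 154 higher and 107 lower, so there the excess of lower genes did not hold. It held without the cells with Mpo and Elane at 10 UMIs per 10000 or more (117 and 135). With the highest 6% of Scrublet doublet scores left out it also held (112 and 160). Over 7969 genes at 5 CPM or more in either library, the floor used for gene lists, 451 (5.66%) were higher and 660 (8.28%) lower by 0.5 or more.

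The 10 genes with the largest increase were Gm10076, Serpinb2, Hist2h2aa1, Elmsan1, Vps39, Sgo1, Lars2, Ccl4, D830025C05Rik and Hgf, with log2 ratios from 1.07 down to 0.80. Serpinb2, which encodes plasminogen activator inhibitor 2, was at 23.7 CPM in media control and 48.5 CPM with deoxycholic acid, a log2 ratio of 1.03 (0.70 to 1.37), and stood at 0.95 without the deep cells. Its ratio was between 0.91 and 1.29 in each of the 4 bands. Hgf, hepatocyte growth factor, was at 13.4 and 23.3 CPM (0.80, 0.34 to 1.27), and stood at 0.64 without the deep cells. Gm10076, a predicted gene, was at 239 and 500 CPM (1.07, 0.96 to 1.17); it and Hist2h2aa1 have near-identical copies, so their split of reads is uncertain. For Ccl4, a chemokine gene, 10 cells held 70.3% of the media control and 77.6% of the deoxycholic acid UMIs, so its ratio of 0.81 rests on few cells.

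The 10 genes with the largest decrease were Dynlt1f, Nolc1, Ctsg, Mthfsl, Churc1, Srsf9, Dram1, Nop58, Ost4 and Eloc, with log2 ratios from -1.43 to -1.01. Eloc, a subunit of elongin ubiquitin ligases, was at 79.9 and 39.7 CPM (-1.01, -1.29 to -0.74) and Ost4, a subunit of the oligosaccharyltransferase, at 56.1 and 27.3 CPM (-1.04, -1.37 to -0.71). Srsf9, a splicing factor, was at 33.8 and 14.5 CPM (-1.23, -1.69 to -0.78). These 3 genes were lower by a like amount in earlier neutrophil-lineage cells, as given further on. Dynlt1f belongs to a family of near-identical dynein light chain copies, so its split of reads is uncertain. Ctsg, the primary granule protease cathepsin G, was at 157 and 61.3 CPM, but 10 cells held 76.1% of its media control UMIs, and without the deep cells it was at 50.6 and 59.9 CPM, a log2 ratio of 0.24. Nolc1 and Nop58, which act in ribosome assembly, stood at -1.37 and -1.11 and moved to -0.37 and -0.13 without the deep cells.

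Cebpb was the abundant transcription factor gene that passed 0.5. Of 24 factors on the list, 20 were at 5 CPM or more; 0 were higher and 4 were lower past 0.5, with a median of 0.08, where 5.66% of all genes at that level were higher and 8.28% lower. Without the deep cells 1 of 19 was called lower, Cebpb, and 1 higher. The counts of the lists that follow stand against the same shares of all genes. Cebpb was at 432 CPM in media control and 261 CPM with deoxycholic acid mature neutrophils, a log2 ratio of -0.73 (-0.84 to -0.62). It was lower in all 3 Ltf bins, at -0.98, -0.40 and -0.76 from low to high Ltf, and lay between -0.88 and -0.61 over the 20 settings run. These 20 include the main setting. Changes of the gene filter or the fold leave a single gene's ratio as it is, and changes of scaling shift it by -0.024 to 0.004. Ranges over the 20 settings thus rest on fewer settings that could move a gene. The other called factors were Cebpa, Gfi1 and Myc, each under 15 CPM; these 3 are factors of early granulocyte progenitors or growth. Cebpd was at 105 and 86.5 CPM (-0.27), Cebpe at 245 and 265 CPM (0.11, or 0.24 without the deep cells) and Spi1, which encodes PU.1, at 357 and 379 CPM (0.09). Only 1 of the 4 abundant C/EBP and PU.1 genes was thus past 0.5.

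The calprotectin genes, whose proteins pair to bind calcium, zinc and manganese, differed in opposite directions. S100a8 was at 135121 CPM in media control and 149354 CPM with deoxycholic acid (0.14, interval 0.14 to 0.15), and S100a9 at 151117 and 122730 CPM (-0.30, -0.31 to -0.29). Over the 20 settings S100a8 stayed between 0.08 and 0.18 and S100a9 between -0.36 and -0.23. The partners thus changed their balance while neither passed 0.5. Earlier neutrophil-lineage cells differed in the same directions, as given further on. S100a11 was at 2475 and 1892 CPM (-0.39), and S100a4 was called lower, at 49.2 and 31.6 CPM (-0.64), with 46.0% and 50.0% of its UMIs in 10 cells; without the deep cells 0 genes of this list were called.

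Secondary granule genes were mixed. Of 15 at 5 CPM or more, 7 were above and 8 below 0, with a median of -0.05 and 1 called lower. Ltf was at 4238 and 4935 CPM (0.22), Ngp, which encodes neutrophilic granule protein, at 22153 and 26329 CPM (0.25) and Chil3, a chitinase-like gene, at 8630 and 10190 CPM (0.24). Camp was at 12023 and 10193 CPM (-0.24). Anxa1, which encodes annexin A1, a protein that limits neutrophil recruitment, was the called gene, at 1262 and 874 CPM (-0.53, -0.59 to -0.47). Anxa1 stood at -0.62 and Ltf at 0.10 without the deep cells.

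Gelatinase granule and secreted genes showed no call. Of 15, 7 were above and 8 below 0, 0 were called and the median was -0.04. Mmp8 was at a log2 ratio of -0.06 and Retnlg at -0.07, and Mmp9 was at 307 and 254 CPM (-0.27, -0.39 to -0.15). Without the deep cells these stood at -0.20, -0.15 and -0.41. Wfdc17 was at 467 and 360 CPM (-0.38), yet its ratio was -0.95 with Ltf under 1, 0.37 with Ltf of 1 to 10 and -0.63 with Ltf of 10 or more, and 10 cells held 34.8% and 46.5% of its UMIs. Il1rn, the interleukin-1 receptor antagonist gene, was at 149 and 174 CPM (0.22, or 0.11 without the deep cells).

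Surface receptors were mixed. Of 21 trafficking receptors and integrins, 13 were above 0, where 4132 of all 7969 genes at 5 CPM or more were, 2 (Cxcr4 and Icam1) were called lower and 0 higher, with a median of 0.16; without the deep cells 11 of 20 were above 0 and the median was 0.03. Cxcr2 was at 173 and 183 CPM (0.08, -0.06 to 0.23), and stood at -0.05 without the deep cells. Cd44, the hyaluronan receptor gene, was at 240 and 301 CPM (0.32) and Itgal, the LFA-1 integrin chain, at 72.9 and 101 CPM (0.47). Cd177, a neutrophil surface antigen, was at 999 and 1144 CPM (0.20). Cxcr4, which holds neutrophils in marrow, was at 31.5 and 21.7 CPM (-0.54). Without the deep cells Cd177 stood at 0.09 and 1 gene of 20 was called lower.

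Among 22 Fc, Toll-like and C-type lectin receptors, 13 were above 0, 1 was called higher and 1 lower, and the median was 0.04, or -0.04 without the deep cells. The called genes were Tlr4, the endotoxin receptor, at 13 and 19.3 CPM (0.57, 0.08 to 1.06), and Trem3, an activating receptor, at 128 and 85.7 CPM (-0.57, -0.77 to -0.38). Cd14, the endotoxin co-receptor, was at 64.6 and 45.8 CPM (-0.49, -0.77 to -0.23). Pirb, an inhibitory receptor that binds MHC class I, was at 352 and 458 CPM (0.38), and at 0.25 without the deep cells.

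For growth factor and cytokine receptors, 11 of 14 were above 0 and 0 were called, with a median of 0.19 and 0.11 without the deep cells. Csf3r, the G-CSF receptor that drives neutrophil production, was at 90.2 and 86.0 CPM (-0.07, -0.28 to 0.14), and Il1r2 at 640 and 652 CPM (0.03); without the deep cells they stood at -0.23 and -0.10. Il17ra, the interleukin-17 receptor chain, was at 170 and 213 CPM (0.33), and stood at 0.21 without the deep cells. The 9 NADPH oxidase genes, which make the respiratory burst, had 5 above 0, 0 called and a median of 0.14, or 0.07 without the deep cells; the catalytic subunit gene Cybb was at 1290 and 1485 CPM (0.20).

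Cytokine and feedback genes were split. Of 13 cytokine and chemokine genes, 2 (Ccl4 and Vegfa) were called higher and 3 (Ccl3, Ccl9 and Cxcl3) lower; without the deep cells these counts were 4 and 2. Ccl3, which encodes the macrophage-attracting chemokine MIP-1α, was at 98.0 and 52.8 CPM (-0.89, -1.14 to -0.66) and lay between -1.21 and -0.75 over the 20 settings. Cxcl2 was at 474 and 479 CPM (0.01, -0.07 to 0.10; -0.07 without the deep cells), with 0.67 in cells with Ltf under 1 and -0.23 in those with 10 or more. Of 15 NF-κB feedback genes, Tnfaip2 and Nfkbid were called higher and Zfp36 and Icam1 lower. Tnfaip2, a TNF-induced gene, was at 169 and 268 CPM (0.67, 0.54 to 0.80) and was between 0.56 and 0.75 in all 4 bands. Zfp36, which encodes tristetraprolin, a protein that speeds decay of cytokine mRNAs, was at 111 and 72.6 CPM (-0.62, -0.83 to -0.41).

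Most glycolysis genes were above 0. Of 19 at 5 CPM or more, 17 were above 0, with a median of 0.26 against 0.01 over all 7969 genes at that level; 1 was called higher and 1 lower. Hk2, an inducible hexokinase that commits glucose to the pathway, was at 67.1 CPM in media control and 104 CPM with deoxycholic acid (0.63, 0.42 to 0.84). Hk3, the myeloid hexokinase, was the other call, at 62.0 and 40.2 CPM (-0.63, -0.91 to -0.35). The glucose transporter gene Slc2a3 was at 213 and 293 CPM (0.46), Eno1 at 324 and 410 CPM (0.34), Pkm at 794 and 942 CPM (0.25) and Gapdh at 1990 and 2048 CPM (0.04). Slc2a3 was uneven along the bands, at 0.86, 0.16, 0.68 and -0.07 from lowest to highest, and Hk2 was at 0.63, 0.35, 0.89 and 0.74. The list's median was 0.28 without the deep cells.

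Hypoxia-induced genes had a median of 0.22, with 12 of 15 above 0, 4 called higher and 0 lower. Bnip3, a mitophagy receptor gene, was at 107 and 158 CPM (0.55, 0.39 to 0.72). The other calls were Pdk1, which restrains pyruvate entry into mitochondria, at 22.8 and 32.4 CPM (0.51), Selenbp1 at 16.6 and 25.5 CPM (0.61) and Vegfa, a vascular growth factor, at 11 and 19.6 CPM (0.83). Hilpda and Ankrd37, also on the list, were at -0.28 and -0.25. Without the deep cells 3 were called higher. Over the 20 settings Hk2 lay between 0.52 and 0.93 and Bnip3 between 0.47 and 0.81, but along the bands Bnip3 was at 0.74, -0.11, 1.04 and 0.71.

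**Figure D3:**
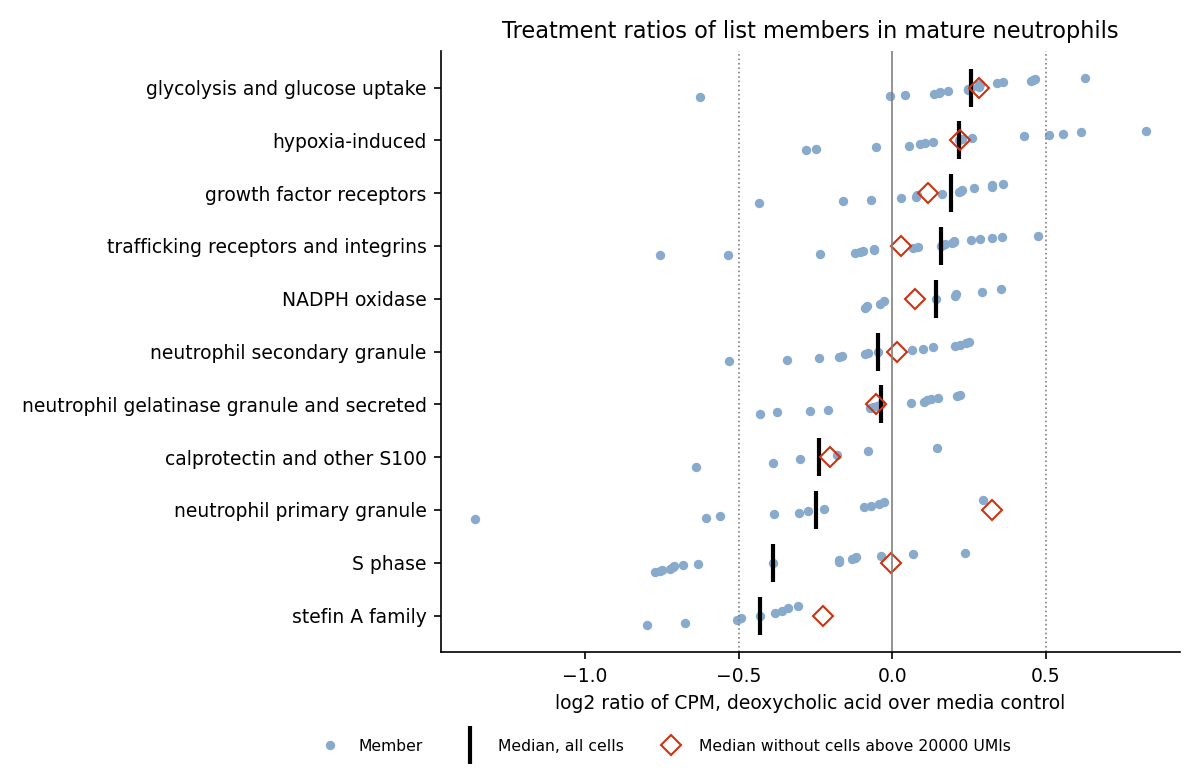
Each dot is a list member's log2 ratio of CPM, deoxycholic acid over media control, in mature neutrophils; black bars are list medians, red diamonds the medians without cells above 20000 UMIs, and dotted lines mark -0.5 and 0.5. The glycolysis (0.26 and 0.28) and hypoxia (0.22 and 0.22) medians keep their place, while the primary granule median moves from -0.25 to 0.32 and the S phase median from -0.39 to -0.003.

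Primary granule, S phase and stefin A lists moved with the deep cells. Of 12 primary granule genes, 11 were below 0 and 3 were called lower, with a median of -0.25; without the deep cells 9 were above 0, 3 were called higher and the median was 0.32. Mpo, the myeloperoxidase gene, was at 88.4 and 60.0 CPM (-0.56) and, without them, at 34.5 and 60.7 CPM (0.82). For Mpo, 10 cells held 78.9% and 73.2% of its UMIs. Primary granule RNA thus had opposite directions with and without the deep cells, which were 30 media control and 2 deoxycholic acid cells. Without the cells with Mpo and Elane at 10 or more, the median was -0.05. There 3 genes were above 0, 9 were below 0 and 1 was called lower.

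Of 17 S phase genes, 15 were below 0 and 8 were called lower, with a median of -0.39; without the deep cells 8 of 16 were below 0, 0 were called lower, 3 were called higher and the median was -0.003. Pcna, the replication clamp gene, was at 72.7 and 46.9 CPM (-0.63) and at 56.8 and 46.6 CPM (-0.29) without them. Mki67 was at 225 and 226 CPM (0.01, -0.12 to 0.14) and stood at 0.39 without them. Of 22 G2 and M phase genes, 14 were below 0, and without the deep cells 19 were above 0. Without the cells with Mpo and Elane at 10 or more, the S phase median was -0.16, with 8 of 16 genes below 0.

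The stefin A genes, a mouse cluster of cysteine protease inhibitors abundant in neutrophils, were below 0 for 9 of 9 at 5 CPM or more, with a median of -0.43 and 3 called lower. Cstdc5 was at 4626 and 3604 CPM (-0.36), Stfa2 at 2896 and 2221 CPM (-0.38), Cstdc4 at 2151 and 1527 CPM (-0.49), Stfa3 at 1814 and 1345 CPM (-0.43) and Stfa2l1 at 1134 and 799 CPM (-0.51). Without the deep cells 8 of 9 were below 0, 0 were called and the median was -0.22; Stfa1 turned from -0.67 to 0.27. Without the cells with Mpo and Elane at 10 or more, 9 of 9 were below 0 and the median was -0.43. With a threshold of 5 on the rule sum Stfa2l1 stood at 0.011. These genes are near-identical copies, so the split of reads among them is uncertain.

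The remaining lists held calls in both directions. Metallothionein Mt1, which binds zinc and copper, was at 803 and 1192 CPM (0.57, 0.51 to 0.63), but 10 cells held 51.1% and 52.1% of its UMIs, and its ratio was 0.11, 1.15, 0.09 and 1.61 in the bands from low to high. Of 21 antioxidant and ferritin genes, Mt1 was called higher and Prdx1, a peroxiredoxin, lower at 69.8 and 45.8 CPM (-0.61, or -0.30 without the deep cells); Txn1, thioredoxin, was at 625 and 442 CPM (-0.50). Of 17 interferon-induced genes, Ifit1 and Ifi204 were called higher and Isg20 lower, all near or under 10 CPM, while the abundant Ifitm6 was at 4280 and 3933 CPM (-0.12, or -0.23 without the deep cells). Of 20 apoptosis genes, the death receptor gene Fas was called lower at 20.4 and 12.1 CPM (-0.76, -1.29 to -0.25), as was Bcl2a1b, and Mcl1, which neutrophils need to survive, was at 413 and 410 CPM (-0.01).

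Among 19 immediate early and heat shock genes, Fosb (35.1 and 49.8 CPM, 0.51) and Klf10 (28.2 and 43.4 CPM, 0.62) were called higher, and Dusp1, a phosphatase of stress kinases, was at 163 and 227 CPM (0.48). Of 8 vitamin D receptor targets, 2 were called lower, Cebpb and Spp1, with a median of -0.15. Of 20 unfolded protein response genes, 0 were higher and 1 lower past 0.5. Of 18 cholesterol genes, 2 were higher and 0 lower, and of 22 ribosomal protein genes and 13 mitochondrially encoded genes, 0 were called either way with all cells; without the deep cells 2 ribosomal protein genes and 1 mitochondrial gene were called higher. Of 22 replication-dependent histone genes, which are cell cycle genes with near-identical copies, 5 were higher and 6 lower, and 6 and 1 without the deep cells.

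Several genes named above for mature neutrophils had like ratios in earlier neutrophil-lineage cells. The comparison used 5043 Ltf-high cells outside the rule, with Ltf at 10 UMIs per 10000 or more, and 7956 progenitors with Mpo and Elane together at 10 or more. Cebpb stood at -0.73 in mature neutrophils, -0.83 in Ltf-high cells and -1.02 in progenitors. Hk2 stood at 0.63, 0.73 and 0.83, Bnip3 at 0.55, 0.55 and 0.77, and Tnfaip2 at 0.67, 0.69 and 0.88. S100a8 stood at 0.14, 0.17 and 0.25. S100a9 stood at -0.30, -0.31 and -0.23, Anxa1 at -0.53, -0.55 and -0.58, and Eloc at -1.01, -1.06 and -1.17. Srsf9 stood at -1.23, -1.10 and -1.29 and Ost4 at -1.04, -0.88 and -0.72. Serpinb2 was higher with deoxycholic acid in all 3 groups, at 1.03, 0.66 and 0.79. The glycolysis median was 0.26, 0.25 and 0.18 and the hypoxia median 0.22, 0.12 and 0.07. All groups come from the same libraries, so these values do not replicate each other.

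In Ltf-high cells 46 of 4485 genes (1.03%) were called higher and 80 (1.78%) lower. These cells held 39838532 media control and 31323502 deoxycholic acid UMIs, against 5529924 and 3733034 in mature neutrophils. Counting error was thus smaller in Ltf-high cells, and the shares called in the 2 groups are not on a like footing. Of 4031 genes measured in both groups, 6 had a log2 ratio at least 0.5 higher in mature neutrophils and 64 at least 0.5 lower; without the deep cells these were 45 and 34. Hgf, under 20 CPM in Ltf-high cells and so not among these genes, stood at 0.80 against 0.19, a difference of 0.61 (0.11 to 1.11, a normal approximation to counting error). The stefin A median was -0.43 in mature neutrophils and 0.04 in Ltf-high cells, and the S phase median -0.39 and 0.05; without the deep cells the mature neutrophil medians were -0.22 and -0.003. Camp stood at -0.24 over all mature neutrophils and -0.44 in Ltf-high cells, but at -0.58 in the highest band and at -0.41, -0.85 and -0.20 in the Ltf bins from low to high, so its order against Ltf-high cells differed among mature neutrophils.

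**Figure D4:**
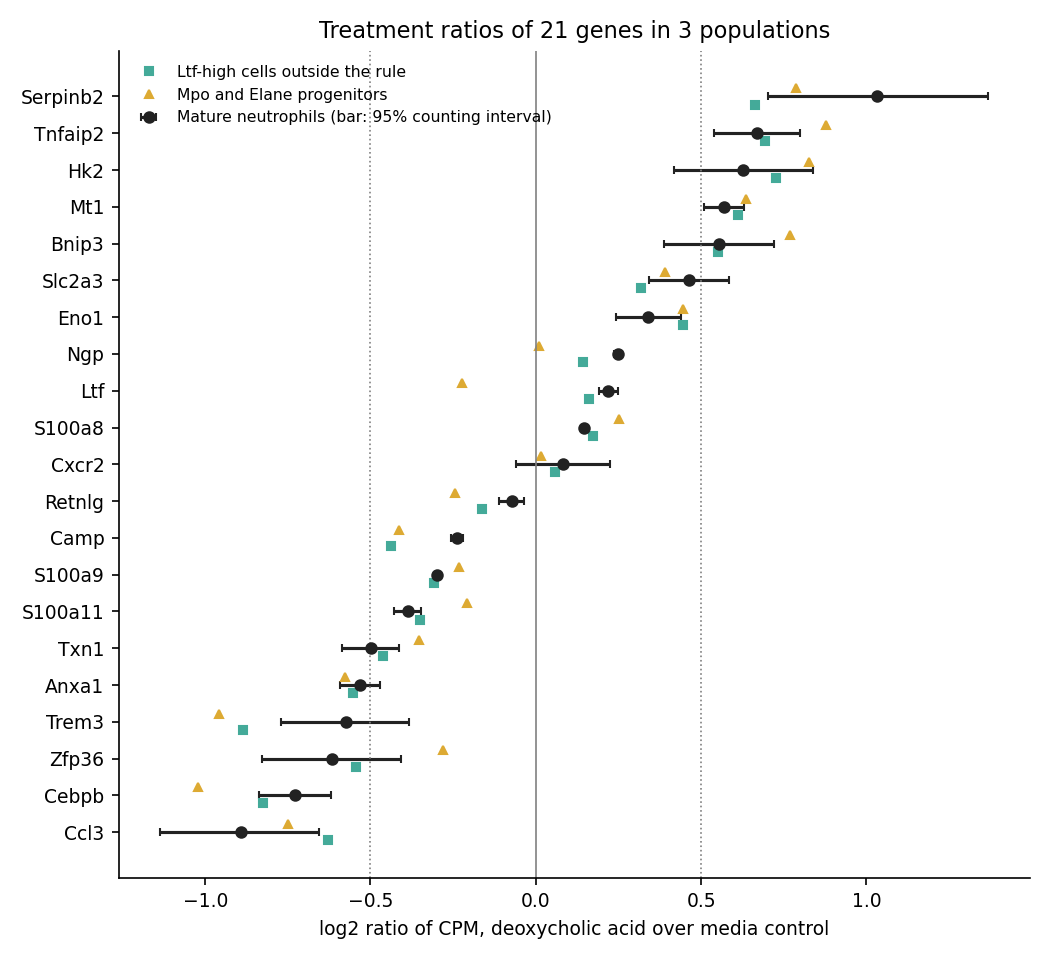
The horizontal axis is the log2 ratio of CPM, deoxycholic acid over media control; black circles with 95% counting intervals are mature neutrophils, green squares Ltf-high cells outside the rule and yellow triangles Mpo and Elane progenitors, and dotted lines mark -0.5 and 0.5. Cebpb (-0.73), Anxa1 (-0.53) and S100a9 (-0.30) lie left of 0 and Tnfaip2 (0.67), Hk2 (0.63) and Bnip3 (0.55) right of it in all 3 populations.

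RNA composition also differed between the libraries. Gm42418, a transcript annotated over a ribosomal RNA repeat, was at 27828 and 43955 CPM in mature neutrophils (0.66) and at 0.63 in Ltf-high cells; Lars2 moved with it, at 768 and 1354 CPM (0.82). Leaving Gm42418, S100a8 and S100a9 out of the totals shifted every log2 ratio by 0.004. Gm42418 and S100a8 were higher with deoxycholic acid and S100a9 was lower, so this joint shift does not measure Gm42418 alone. The part of Gm42418 in the other differences was not tested.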

How the data were processed

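Lineage-negative cells were sequenced with the 10x Genomics 3′ version 3.1 kit, per the labels' protocols; the submitters' processing notes name Cell Ranger 6.0. The sources used here give no genome build, annotation or cell filter. The authors deposited unnormalized UMI counts of 32285 genes in each cell, and everything else was computed from these. Members, gene lists and tests were chosen with earlier results of these data known. Named genes were the 6 markers, the 10 largest log2 ratios each way, the 10 genes highest over other cells, and in each gene list the 4 most abundant and those past 0.5; other list members, and the groups left out as deep cells, were chosen after their values were seen. No edgeR test was run because cells could not be assigned to lettered samples. Ratios against 0 used 3 counts. Scrublet's automatic threshold (scanpy 1.11.5) called 4 cells in each library, 0.0441% and 0.0481%, which is too few to be usable, so doublets stayed in, and an alternative left out the highest scores. Library totals were 183462851 media control and 131341422 deoxycholic acid UMIs, of which 5529924 and 3733034 lay in mature neutrophils and set the counting error. Tools were scipy 1.17.1, numpy 2.4.6, pandas 2.3.3 and matplotlib 3.10.9 under Python 3.11.15, and edgeR 4.0.16 for TMM factors. Ratios and intervals were tested on simulated data. Alternatives changed the rule, cell filters, depth, scaling and gene filters. Values of some list members are not reported here.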

Additional observations from a re-analysis of the deposited data

How the results depend on the processing

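With 1 library a group, no setting measures the spread between cultures, and depth limits genes under 20 CPM. No paired analysis was possible because the cell names carry only the group, not the lettered sample. The share ratio, 0.908, stayed under 1 in every setting run and moved to 0.798 with a rule sum of at least 20 and to 0.796 with cells thinned to 5000 UMIs. Counts of genes past the fold, 109 higher and 196 lower, moved to 70 and 97 with a rule sum of at least 5, to 231 and 406 as a mean of the 3 Ltf bins, to 1841 and 1703 with no minimum beyond 1 UMI, to 29 and 66 with at least 50 CPM and 100 UMIs, and to 2 and 10 at a log2 fold of 1; 181 were higher with a rule sum of at least 20, and 107 lower without mature neutrophils above 20000 UMIs, a setting added after seeing the data. Genes with a ratio higher by 0.5 in mature neutrophils than in Ltf-high cells, 6, moved to 19 with Ltf of at least 30, to 14 without cells with Mpo and Elane of at least 10 (added) and to 45 without the deep cells; the 64 lower genes moved to 33 and 34 under the last pair. Single genes reversed as follows. Without the deep cells Ctsg stood at 0.24, Stfa1 at 0.27, Mpo at 0.82 and Ms4a3 at 0.40. Stfa1 stood at 0.47 with a rule sum of at least 5, 0.56 with Mmp9 and Cxcr2 alone, 0.10 thinned to 5000 UMIs and 0.20 thinned to 2000 (added). Ccl4 stood at -0.64 with Mmp9 and Cxcr2 alone and -0.078 thinned to 2000, Nop58 at 0.11 with a rule sum of at least 20, and Stfa2l1 at 0.011 with a rule sum of at least 5. The cause was not tested, except that fewer or more genes pass a changed filter. Of 26 lists, 13 had a median above 0, and 11 to 16 did over the settings.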
